A study of Mus musculus with 12 samples.

Results

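The 10 genes described here are regulators of myeloid commitment: the transcription factors Cebpa, Cebpb, Cebpd, Spi1, Gfi1, Id2 and Batf2 and the cytokine receptors Csf1r, Csf3r and Csf2rb. They were chosen by name, as factors and receptors that steer blood progenitors towards granulocytes and macrophages, and all 10 were found among the 24946 genes of the deposited table. RNA-seq was available for 12 bulk libraries of mouse haematopoietic stem cells (HSCs), the scarce marrow cells from which all blood lineages descend, with 3 libraries in each of 4 groups. The groups were Bst2 knockout (KO) mice given recombinant interferon-γ (rm-IFNg in the labels, IFN-γ here; 100 µg, 24 h), naive KO mice, wild-type (WT) mice given the same IFN-γ treatment, and naive WT mice, all on the C57BL/6 background. Bst2 codes for tetherin, a membrane protein that interferon induces. Neither the age of the mice nor the way the knockout was made is stated in the labels. HSCs were sorted as lineage-negative cells with c-Kit and CD150 and without CD48 and CD34. The labels do not tie libraries to single mice, so the p-values describe variation from library to library, which may be technical.

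C/EBPα and PU.1, the product of Spi1, act together at the enhancers of myeloid genes and push progenitors towards granulocytes and macrophages. C/EBPβ takes over much of this work when infection or cytokines raise the demand for granulocytes, a state called emergency granulopoiesis. Gfi1 is a repressor that favours neutrophils over monocytes and restrains the division of HSCs. Id2 lacks a DNA-binding domain and blocks E proteins, and Batf2 is an interferon-inducible leucine zipper factor. Csf1r, Csf3r and Csf2rb encode receptors for M-CSF, for G-CSF, and the common β chain of the GM-CSF, IL-3 and IL-5 receptors.

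The values are normalized expression values made by the authors, called units here; they are not scaled by gene length, so levels are compared between libraries and not between genes. The library codes in the titles fall into 3 code series: R-09 (4 libraries, 1 in each group), R-07 (2 libraries, both KO) and FL-06 (6 libraries). What the codes stand for is not stated. Differences were estimated with limma on log2(value + 1) across 10816 genes, with the code series in the model, and a difference was called at a Benjamini-Hochberg adjusted p below 0.05 over all these genes. Genes entered with at least 100 units in at least 3 libraries, and Batf2, Csf1r and Id2 would not have met that minimum without the R-09 libraries. Bst2 lay between 0 and 24.8 units in the 6 KO libraries and between 152 and 1514 units in the 6 WT libraries. The library WT naive 2 was shallow: its depth was estimated at 0.495 M reads, where 3 reads are worth 101.5 units, against 8.78 to 52.0 M reads and 1.02 to 5.22 units in the other 11. A value of 0 in WT naive 2 therefore sets no useful limit on a gene below about 101.5 units.

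The design asks whether IFN-γ alters the expression of these genes in HSCs and whether loss of Bst2 changes that response. None of the 10 regulators passed the threshold for IFN-γ, for genotype or for their interaction, in any of the 6 comparisons tested. Of all 10816 genes, IFN-γ averaged over the genotypes called 7 (0.0647%), all higher in treated HSCs. IFN-γ in KO called 0 genes (0%), with 318 at an unadjusted p below 0.05, and IFN-γ in WT called 1 (0.00925%), which was 0 genes with the replicate number as a block. KO minus WT called 0 genes in naive HSCs (0%; 702 at an unadjusted p below 0.05) and 0 in treated HSCs (0%; 226), and the interaction, the IFN-γ effect in KO minus that in WT, called 0 (0%; 367). These counts are limma's with Benjamini-Hochberg adjustment. They moved with single libraries, since IFN-γ in WT called 15 genes without WT naive 3 and 0 without WT naive 1, but no regulator was among the calls in any alternative setting. The treatment itself was visible in genes known to respond to interferon: 4 of 10 such indicator genes rose with IFN-γ averaged over genotypes. They were Cd74, the class II invariant chain (log2 fold change 2.16), Gbp3 (1.07), Tap1 (0.86) and H2-K1 (0.60), and Cd74 was also the 1 call in WT (2.55). The indicator list was chosen with earlier results of these data known, so its count is a description.

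Csf3r, Gfi1 and Cebpb had lower values after IFN-γ in WT, without passing the threshold. They are shown first with the bases that precede their transcription starts, because they were the members for which every treated WT library lay below every naive one within both code series. The sequences are the 250 bases upstream of each start from RefSeq on GRCm38.p6, written 5′ to 3′ on the gene's strand, and they were chosen after the values were seen. Capitals mark matches to short motifs, searched on both strands.
Csf3r, chr4:126024409-126024658, plus strand: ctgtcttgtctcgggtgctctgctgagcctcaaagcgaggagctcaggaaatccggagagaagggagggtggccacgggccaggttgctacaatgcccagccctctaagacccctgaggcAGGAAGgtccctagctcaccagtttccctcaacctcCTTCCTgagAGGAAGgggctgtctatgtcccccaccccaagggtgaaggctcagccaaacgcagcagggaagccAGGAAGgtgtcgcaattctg
Gfi1, chr5:107725806-107726055, minus strand: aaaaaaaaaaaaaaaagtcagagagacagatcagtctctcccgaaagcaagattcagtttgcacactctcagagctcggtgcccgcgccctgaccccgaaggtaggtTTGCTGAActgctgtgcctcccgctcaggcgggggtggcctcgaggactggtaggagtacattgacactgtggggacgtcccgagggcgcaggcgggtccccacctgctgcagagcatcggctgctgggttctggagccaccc
Cebpb, chr2:167688665-167688914, plus strand: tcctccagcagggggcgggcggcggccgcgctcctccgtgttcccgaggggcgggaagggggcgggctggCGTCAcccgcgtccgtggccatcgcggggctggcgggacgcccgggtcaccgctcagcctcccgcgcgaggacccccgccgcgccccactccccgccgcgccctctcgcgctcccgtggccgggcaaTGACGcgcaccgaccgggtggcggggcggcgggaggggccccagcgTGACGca
The Csf3r window held 4 matches to AGGAAG, a form of the ETS core that PU.1 can bind, beginning 130, 94 (on the other strand), 85 and 20 bases before the start. At least 1 such match occurred in 29.5% of all 32851 upstream windows of this length. The window of the Gfi1 start shown held 1 match to the C/EBP-type motif TTGCNNAA, 143 bases before the start, a motif found in 9.56% of windows. RefSeq gives a second Gfi1 start, whose window (chr5:107724344-107724593) held 0 matches to that motif and 1 to AGGAAG, on the other strand, 108 bases before the start. The Cebpb window held 3 matches to TGACG, a core of the cAMP response element, at 180 (on the other strand), 53 and 7 bases before the start. At least 1 match to TGACG occurred in 17.8% of windows. How many windows held as many matches as Csf3r or Cebpb was not counted. None of the 3 windows shown matched the interferon-type motifs TTCNNNGAA (7.02% of windows) or GAAANNGAAA (2.98%). The motifs do not overlap one another here, and a match is only a match of letters. Upstream sequences were examined for 5 of the 10 members. The windows of Cebpa and Id2, not shown, held 0 matches to each of these motifs. Those of Spi1, Batf2, Cebpd, Csf1r and Csf2rb were not examined.

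Csf3r, the G-CSF receptor, was the member whose treated and naive WT libraries did not overlap. Csf3r had 541, 1005 and 503 units in KO IFN-γ libraries 1 to 3, against 921, 446 and 478 units in KO naive libraries 1 to 3. In WT, Csf3r had 439.7, 413 and 546 units in IFN-γ libraries, against 902, 590.0 and 820.5 units in naive libraries. All 3 treated WT libraries lay below all 3 naive WT libraries, while the KO groups overlapped over almost their whole range. Csf3r averaged 683 ± 279.7 units in treated KO and 615 ± 266 units in naive KO HSCs, and 466 ± 70.3 units in treated WT and 771 ± 162 units in naive WT HSCs (SD, n = 3 each). Of the 10816 genes tested, 1.22% showed the same lack of overlap in WT, and Csf3r was the only member among the 10 that did. The limma estimate in KO was 0.16 on the log2 scale (SE 0.26, 95% interval −0.42 to 0.73, adjusted p = 0.9998), and in WT it was −0.71 (SE 0.26, −1.29 to −0.14, adjusted p = 0.63). Neither passed the threshold.

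Within code series the direction of Csf3r was the same each time for a genotype. In KO, treated over naive was 1.09 in R-09, 1.13 in R-07 and 1.13 in FL-06, and in WT it was 0.666 in R-09 and 0.571 in FL-06. As log2 differences, the KO series gave 0.13, 0.17 and 0.18, and the WT series gave −0.59 and −0.77. Leaving out the shallow WT naive 2 made the FL-06 value −1.08. The fitted difference between the effects, KO minus WT, was 0.87 (SE 0.37, 95% interval 0.06 to 1.68), with an adjusted p of 0.9331 from limma, so the difference between the genotypes did not pass the threshold. Of the 10816 genes, 73 (0.675%) had every treated library below every naive one in both WT series and above it in all 3 KO series, and Csf3r was the 1 member among them. By the same rule, without overlap inside a series, treated WT libraries lay lower in both series for 3 of 10 members (Csf3r, Gfi1 and Cebpb), against 8.75% of all genes. They lay higher in both for 3 of 10 (Cebpa, Csf1r and Csf2rb), against 15.2%. Treated KO libraries lay higher in all 3 series for 1 of 10, Csf3r, against 11.7% of all genes.

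Gfi1, the zinc finger repressor, had its 2 highest values of the 12 libraries in naive WT HSCs, 1 in each code series. Gfi1 had 116, 250 and 78.6 units in KO IFN-γ libraries, against 182, 157 and 62.4 units in KO naive libraries. It had 96, 98.7 and 232 units in WT IFN-γ libraries, against 224, 583 and 612 units in WT naive libraries. The highest treated WT library, from R-09, lay just above the lowest naive one, from FL-06, so the WT groups overlapped by that pair. One of the top values, 583 units, came from the shallow WT naive 2. Treated minus naive on the log2 scale in KO was 0.46 in R-09, −0.99 in R-07 and 0.89 in FL-06, with no common direction. In WT it was −1.40 in R-09 and −1.88 in FL-06, and −1.19 in FL-06 without WT naive 2. The limma estimate for Gfi1 was 0.12 in KO (SE 0.55, adjusted p = 0.9998), −1.72 in WT (SE 0.55, adjusted p = 0.62), and 1.84 for the interaction (SE 0.78, adjusted p = 0.9331). Naive KO HSCs lay below naive WT HSCs by an estimate of −1.92 (SE 0.59), with an unadjusted p of 0.00785 and an adjusted p of 0.7074.

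Cebpb had 356, 2588 and 701 units in KO IFN-γ libraries, against 2014, 547 and 552 units in KO naive libraries. In WT, Cebpb had 310.4, 334 and 1883 units in IFN-γ libraries, against 553, 509.5 and 3311 units in naive libraries. The 4 highest values were those of R-09, 1 in each group, so the groups overlapped unless the series were kept apart. Within R-09, treated over naive was 1.29 in KO and 0.569 in WT. Within FL-06 it was 0.644 in KO and 0.606 in WT, and within R-07 it was 1.28 in KO. Cebpb was thus lower after IFN-γ in both WT series, and in KO it was lower in 1 series and higher in 2. The limma estimate for Cebpb was 0.03 in KO (SE 0.23, adjusted p = 0.9998) and −0.75 in WT (SE 0.23, unadjusted p 0.00707, adjusted p = 0.59), with 0.78 for the interaction (SE 0.32, adjusted p = 0.9331). No alternative setting, of 21 tried, brought Csf3r, Gfi1 or Cebpb past the threshold in these comparisons, and none changed the sign of their WT or interaction estimates.

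Markers of mature neutrophils had lower summed levels after treatment in both genotypes. In KO, the summed level of 11 such markers was 4412, 65551 and 5518 units in IFN-γ libraries 1 to 3, against 171830, 8391 and 5798 units in naive libraries. In WT it was 5828, 6349 and 65698 units in IFN-γ libraries, against 9406, 9016 and 129677 units in naive libraries. The sum was thus lower in treated than in naive HSCs within every code series of both genotypes. Csf3r, Gfi1 and Cebpb were lower in both WT series, whereas Csf3r was slightly higher in all KO series. Of all genes tested, 12.1% were lower in all 3 KO series and 8.75% in both WT series. Single markers went both ways, with positive estimates for 3 of 9 tested in KO and 2 of 9 in WT. The 8 primary granule genes summed higher after treatment in KO R-07 (7314 against 6790 units) and KO FL-06 (6731 against 5986 units). They summed lower in KO R-09 (50322 against 68606 units). No neutrophil marker was called for IFN-γ in either genotype. The part of such transcripts in the WT differences was not tested. In bulk libraries, fewer cells of a type and less RNA per cell cannot be told apart.

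**Figure D1:**
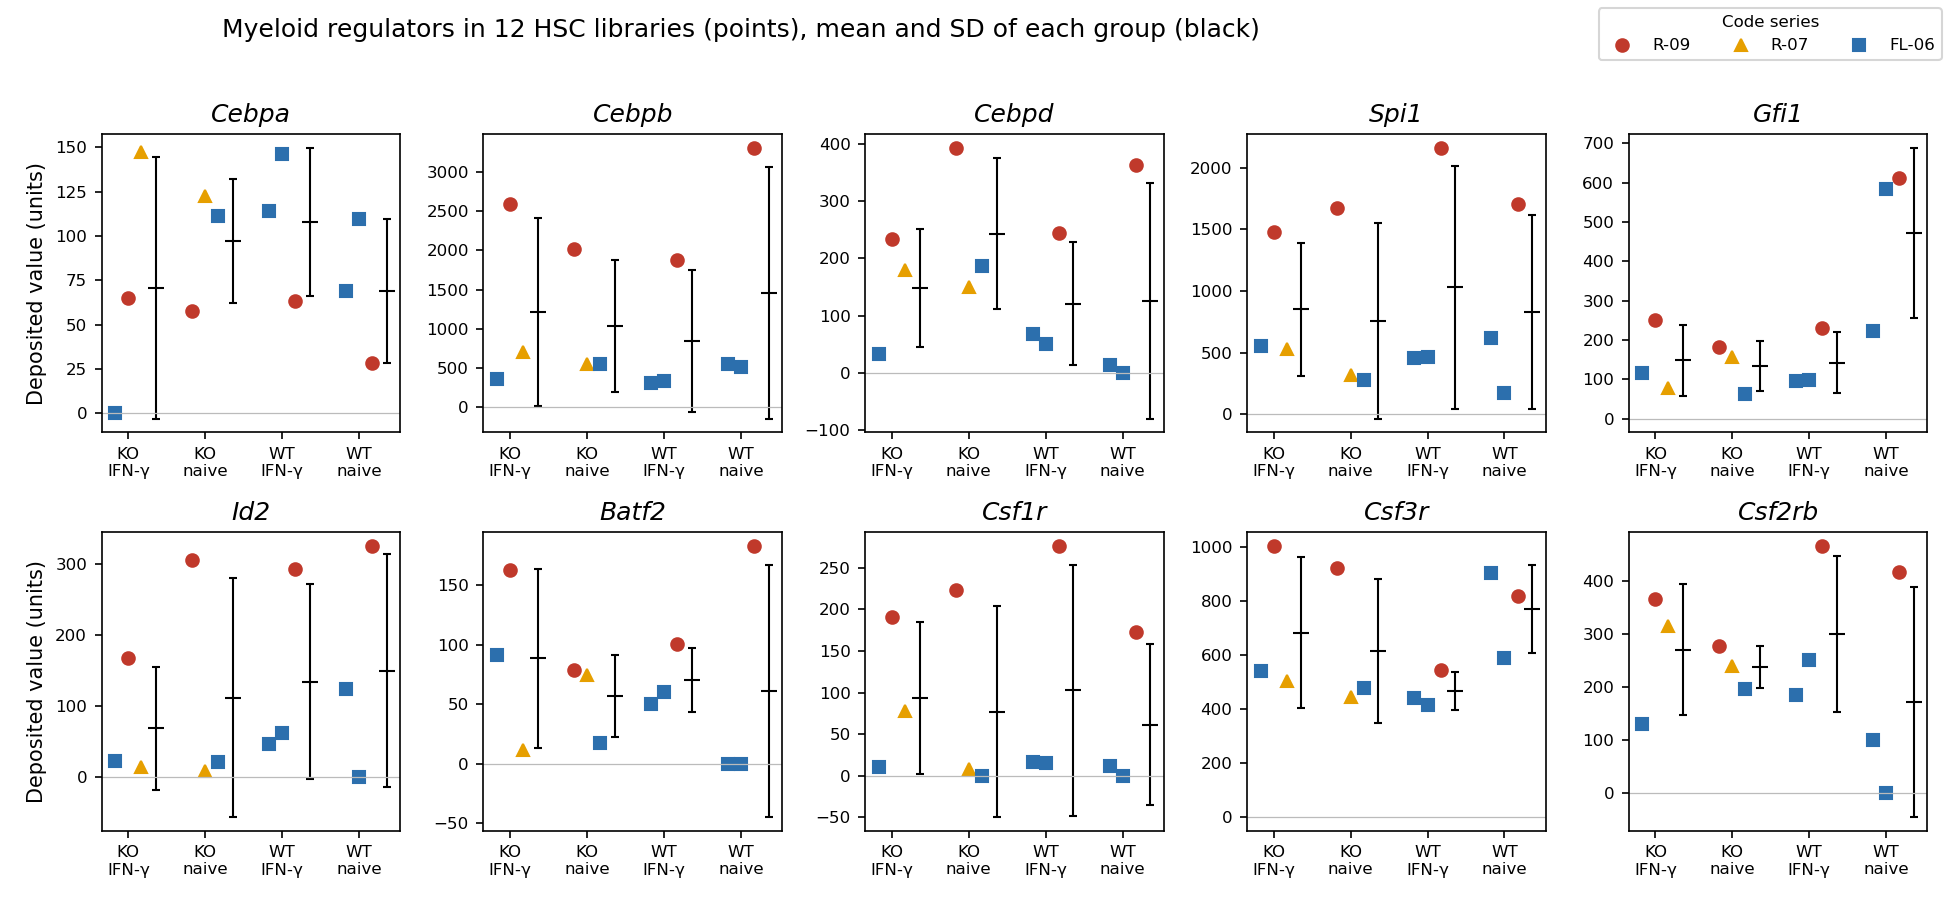
Deposited value (units, linear axis that differs between panels) of the 10 regulators in each of the 12 libraries, by group, coloured by code series, with the mean and SD of each group (n = 3) in black. Csf3r in treated WT HSCs (413 to 546 units) sat below naive WT HSCs (590.0 to 902 units), and the R-09 libraries were the highest for Cebpb, Cebpd, Spi1, Id2 and Csf1r.

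**Figure D2:**
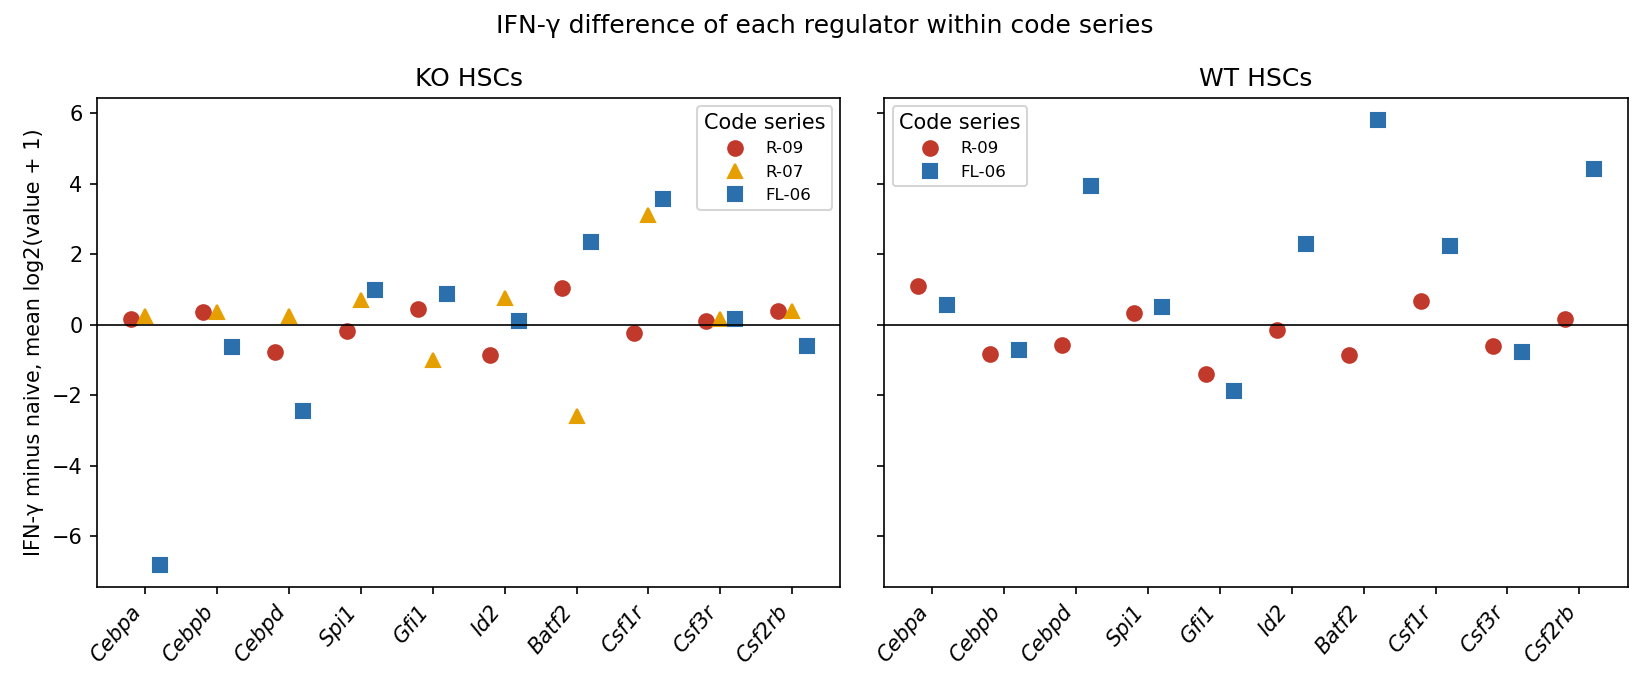
Difference between IFN-γ and naive libraries in mean log2(value + 1) within each code series, for KO (left) and WT (right); each point compares 1 library with 1, except WT FL-06, which compares 2 with 2. Csf3r lay between 0.13 and 0.18 in the 3 KO series and at −0.59 and −0.77 in the 2 WT series, while low genes such as Batf2 and Cebpa spread over several log2 units.

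The remaining transcription factors gave no common direction after IFN-γ. Spi1, which encodes PU.1, had 551, 1477 and 529 units in KO IFN-γ libraries, against 1674, 321 and 278 units in KO naive libraries. In WT, Spi1 had 456, 468 and 2165 units in IFN-γ libraries, against 620.3, 173 and 1705 units in naive libraries. The treated and naive ranges overlapped in both genotypes, and R-09 held the top library of each group. The difference in WT FL-06 was 0.50 on the log2 scale, and it was −0.42 without the shallow WT naive 2, so its direction rested on that library. The limma estimate for Spi1 was 0.51 in KO (SE 0.41, adjusted p = 0.9998) and 0.45 in WT (SE 0.41, adjusted p = 0.72).

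Cebpa, which granulocyte progenitors need to form, had low values in R-09, where most other members were highest. Cebpa had 0, 65.2 and 147 units in KO IFN-γ libraries, against 57.5, 123 and 111 units in KO naive libraries. It had 114, 146 and 63.3 units in WT IFN-γ libraries, against 68.7, 109.7 and 28.7 units in WT naive libraries. The lowest value of each group came from R-09, except in treated KO HSCs, where KO IFN-γ 1 of FL-06 was listed at 0. That library had an estimated depth of 13.2 M reads, at which 3 reads are worth 3.96 units. The limma estimate in KO, −2.12 on the log2 scale (SE 1.44, adjusted p = 0.9998), includes −6.81 from the FL-06 pair alone, beside 0.18 in R-09 and 0.26 in R-07. In WT the difference was 1.12 in R-09 and 0.57 in FL-06, and the limma estimate was 0.75 (SE 1.44, adjusted p = 0.88).

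Cebpd, an acute-phase member of the C/EBP family, had 33.4, 233 and 179 units in KO IFN-γ libraries, against 393, 149 and 186 units in KO naive libraries. It had 68.0, 50.1 and 244 units in WT IFN-γ libraries, against 14.2, 0 and 364 units in WT naive libraries. The value of 0 was that of WT naive 2, and both genotypes' groups overlapped. The limma estimate was −0.98 in KO (SE 1.26, adjusted p = 0.9998). In WT it was 2.43 (SE 1.26, adjusted p = 0.63), and 0.78 without WT naive 2. Within R-09, where no library was shallow, treated minus naive was −0.75 in KO and −0.57 in WT.

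Id2, the inhibitor of E proteins, had 22.6, 168 and 14 units in KO IFN-γ libraries, against 305, 7.82 and 21.0 units in KO naive libraries. In WT, Id2 had 46.7, 62.2 and 292 units in IFN-γ libraries, against 123, 0 and 325 units in naive libraries. Each group had 1 library far above the other 2, that of R-09, except that WT naive 1 reached 123 units. The KO estimate from limma was 0.00443 (SE 1.52, adjusted p = 0.9998). The WT estimate was 1.48 (SE 1.52, adjusted p = 0.75), and it became −0.64 without WT naive 2.

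Batf2 was followed because it is linked to differentiation driven by IFN-γ. It had 91.5, 162 and 11.6 units in KO IFN-γ libraries, against 78.5, 74.7 and 17.1 units in KO naive libraries. It had 50, 60.5 and 101 units in WT IFN-γ libraries, against 0, 0 and 183 units in WT naive libraries. Both FL-06 naive WT libraries were thus at 0 and both treated ones were not, whereas in R-09 the naive library was the higher one. WT naive 1 was not shallow, and 3 reads are worth 5.22 units there. Treated minus naive on the log2 scale in KO was 1.04 in R-09, −2.59 in R-07 and 2.35 in FL-06. In WT it was −0.86 in R-09 and 5.81 in FL-06, and that last value depends on the 1 unit added to 0. The limma estimate for Batf2 was 0.27 in KO (SE 1.58, adjusted p = 0.9998) and 3.59 in WT (SE 1.58, adjusted p = 0.63). Without the R-09 libraries the WT estimate was 5.81 (SE 1.59, adjusted p = 0.45). Batf2 was thus higher after IFN-γ in some code series and lower in others in both genotypes.

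Of the other receptors, Csf1r, which binds M-CSF and IL-34, had 10.8, 191 and 78.0 units in KO IFN-γ libraries, against 223, 8.02 and 0 units in KO naive libraries. It had 16.3, 15.4 and 277 units in WT IFN-γ libraries, against 11.8, 0 and 173 units in WT naive libraries. Only R-09 libraries exceeded 100 units, and the treated and naive ranges overlapped in both genotypes. The limma estimate for Csf1r was 2.16 in KO (SE 1.40, adjusted p = 0.9998) and 1.71 in WT (SE 1.40, adjusted p = 0.69), and the WT estimate became 0.67 without WT naive 2.

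Csf2rb, the common β chain, had 129.8, 366 and 315 units in KO IFN-γ libraries, against 277, 239 and 196 units in KO naive libraries. It had 184, 250.3 and 466 units in WT IFN-γ libraries, against 98.9, 0 and 416 units in WT naive libraries. The groups overlapped in both genotypes, and the 0 was again that of WT naive 2. The limma estimate was 0.07 in KO (SE 1.45, adjusted p = 0.9998). In WT it was 3.01 (SE 1.45, adjusted p = 0.63), and 0.66 without that library. Mice also carry Csf2rb2, a close paralog that serves the IL-3 receptor, and how the authors counted reads shared by the pair is not stated. Their sum was 297, 402 and 397 units in KO IFN-γ libraries, against 299.6, 337 and 247 units in KO naive libraries. In WT the sum was 316, 431 and 484 units in IFN-γ libraries, against 219, 0 and 469.7 units in naive libraries.

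Genotype differences of the members were no clearer than those of treatment. Both R-07 libraries are KO and the code series is in the model, so KO met WT only within R-09 and FL-06. In naive HSCs the KO minus WT estimates were positive for 4 of 10 members, with a median of −0.20 against 0.07 over all genes tested. Without the shallow WT naive 2 that median was −0.41, against 0.01. In treated HSCs they were positive for 2 of 10, with a median of −0.35 against −0.04. The estimates farthest from 0 belonged to members with a library at 0. Cebpd differed by 3.08 in naive HSCs (SE 1.35, adjusted p = 0.7074), where WT naive 2 was at 0, and Cebpa by −3.13 in treated HSCs (SE 1.54, adjusted p = 1), where KO IFN-γ 1 was at 0. For IFN-γ, estimates were positive for 8 of 10 members in KO with a median of 0.09, against 0.01 over all genes. In WT they were positive for 7 of 10 with a median of 1.12, against 0.11 over all genes. Without WT naive 2 they were positive for 5 of 10 with a median of 0.29, against 0.05 over all genes, so the WT count and median rested on that library.

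Between the code series, members did pass the threshold. Between R-09 and FL-06, 7 of the 10 rose and 0 fell in R-09, where 35.6% of all genes tested rose and 32.3% fell. All 4 R-09 libraries lay above the other 8 libraries, with no overlap, for 5 of 10 members: Cebpb, Cebpd, Spi1, Id2 and Csf1r. The same held for 29.3% of all genes, so the split ran through the whole table. Batf2, Csf1r and Id2 had to be high in R-09 to be tested at all, so the differences of Csf1r and Id2 are a description. Of the 7 members that met the minimum without R-09, 5 rose and 0 fell. The matching share over all genes that met it without R-09 was not computed. Each group holds 1 R-09 library, so the split is balanced over the 4 groups and enters the SD of each.

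Cebpb differed most firmly, with 1883 to 3311 units in the 4 R-09 libraries, against 310.4 to 553 units in the 6 FL-06 libraries. R-07 held 547 and 701 units. The limma estimate for R-09 minus FL-06 was 2.49 (SE 0.18, adjusted p = 2.919e-07), and the ranges of the series were far apart. Spi1 ranged from 1477 to 2165 units in R-09 and from 173 to 620.3 units in FL-06 (2.17, SE 0.33, limma adjusted p = 0.0001161), with 321 and 529 units in R-07. Csf1r ranged from 173 to 277 units in R-09 and from 0 to 16.3 units in FL-06 (5.29, SE 1.12, limma adjusted p = 0.001446). Cebpb, Spi1 and Csf1r were the members called in all 19 alternative settings in which this difference could be fitted. Csf1r had to be high in R-09 to meet the minimum, so its difference and its calls are a description.

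Cebpd ranged from 233 to 393 units in R-09 and from 0 to 186 units in FL-06 (3.28, SE 1.01, limma adjusted p = 0.01369). Its adjusted p was 0.113 without WT naive 3, where the estimate was 1.97. Id2 ranged from 168 to 325 units in R-09 and from 0 to 123 units in FL-06 (3.50, SE 1.22, limma adjusted p = 0.02443). For both, the top of FL-06 lay below the bottom of R-09. Id2 had to be high in R-09 to meet the minimum, so its difference is a description. Id2 missed the threshold without WT naive 3 (adjusted p = 0.111), KO naive 1 (0.0692), KO naive 3 (0.0531) or KO IFN-γ 1 (0.0512). Csf3r ranged from 546 to 1005 units in R-09 and from 413 to 902 units in FL-06, with overlap (0.54, SE 0.21, limma adjusted p = 0.038). Gfi1 ranged from 182 to 612 units in R-09 and from 62.4 to 583 units in FL-06, with overlap (1.13, SE 0.44, limma adjusted p = 0.04035). The calls for the last pair were fragile: Csf3r was called in 11 and Gfi1 in 9 of the 19 alternative settings. Csf3r missed the threshold without any 1 of WT IFN-γ 1, 2 or 3, KO naive 1 or 3, or KO IFN-γ 1 or 2 (adjusted p from 0.0565 to 0.117). Gfi1 missed it without any 1 of WT naive 1 or 3, WT IFN-γ 1, 2 or 3, KO naive 1 or 3, or KO IFN-γ 2 (adjusted p from 0.0612 to 0.116).

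Batf2, Csf2rb and Cebpa did not pass the threshold between the series. Batf2 ranged from 78.5 to 183 units in R-09 and from 0 to 91.5 units in FL-06 (3.03, SE 1.27, limma adjusted p = 0.05309). Batf2 had to be high in R-09 to meet the minimum, so its difference is a description. Csf2rb ranged from 277 to 466 units in R-09 and from 0 to 250.3 units in FL-06 (2.28, SE 1.17, limma adjusted p = 0.1025). Without the shallow WT naive 2, both passed, Batf2 at 2.68 (adjusted p = 0.0367) and Csf2rb at 1.28 (adjusted p = 0.00209). Batf2 also passed without WT IFN-γ 3 (0.0464) or KO IFN-γ 1 (0.035), and Csf2rb without WT naive 1 (0.0376). Fits that left out a library kept the genes of the main fit, so the passes of Batf2 there are a description too. Batf2 passed as well with a pseudocount of 10 (0.0289) or a minimum of 20 units (0.0465), and Csf2rb with a pseudocount of 10 (0.0274) or quantile normalization (0.00573). The paralog Csf2rb2 had 18 to 53.3 units in R-09 and 0 to 181 units in the other 8 libraries, and was not called (−0.92, SE 1.34, limma adjusted p = 0.56). The sum of the pair overlapped between R-09 (299.6 to 484 units) and the other 8 (0 to 431 units). Cebpa ranged from 28.7 to 65.2 units in R-09, against 0 to 146 units in FL-06 and 123 and 147 units in R-07. Its estimate was 0.36 (SE 1.16, adjusted p = 0.79) with the 0 of KO IFN-γ 1 and −1.19 (adjusted p = 0.0976) without that library.

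Because Batf2, Csf1r and Id2 had to be high in R-09 to enter the fit, the comparison was also run on all 17485 genes that a fit without a minimum could use. There 25.3% of genes rose in R-09, and 5 of the 10 members did: Cebpb, Cebpd, Csf1r, Id2 and Spi1. Csf3r (adjusted p = 0.05003) and Gfi1 (adjusted p = 0.0553) lay just outside the threshold.

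**Figure D3:**
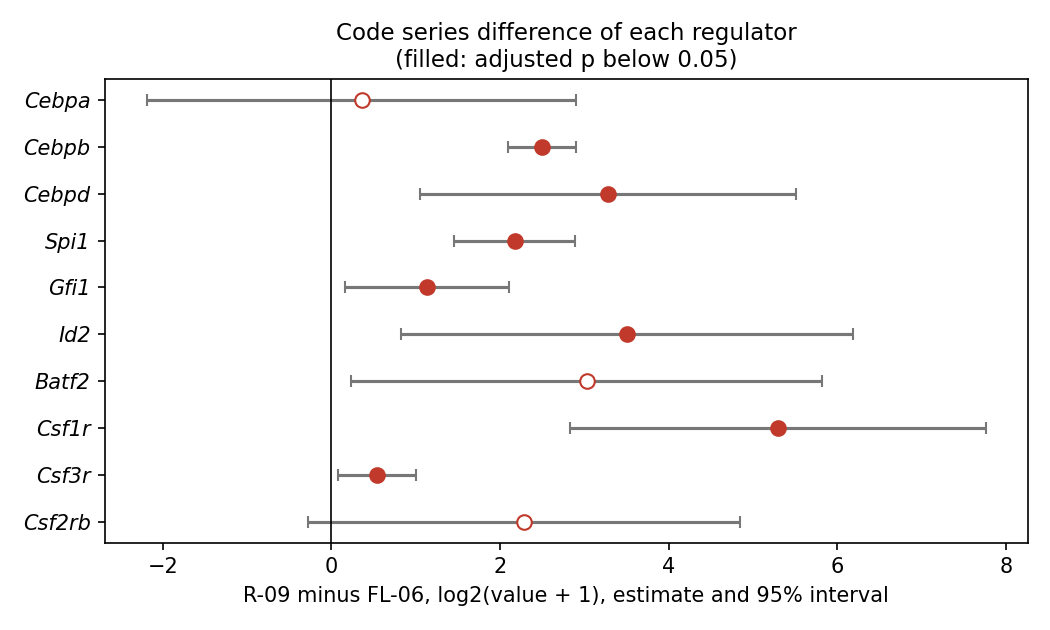
Estimated difference between code series R-09 and FL-06 for each regulator on the log2(value + 1) scale, with the 95% interval from limma; filled points had an adjusted p below 0.05. Cebpb (2.49) and Spi1 (2.17) had narrow intervals, Csf1r (5.29) the estimate farthest from 0, and the interval of Cebpa crossed 0. Batf2, Csf1r and Id2 had to be high in R-09 to be tested, so their points are a description.

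Myeloid cell markers and primary granule genes moved with the same split. Marker counts here cover only genes that met the minimum without the R-09 libraries, since the others had to be high in R-09 to be tested. Over all genes tested, 35.6% rose and 32.3% fell. The share over genes that met the minimum without R-09 was not computed. The summed level of 11 mature neutrophil markers was 65551 to 171830 units in R-09, 5518 and 8391 units in R-07, and 4412 to 9406 units in FL-06, and 6 of 6 such markers rose in R-09. S100a8, a calcium-binding protein of neutrophils, had 11818 to 38198 units in R-09 and 195 to 810.1 units in the other 8. The 8 primary granule genes summed to 50322 to 69455 units in R-09, 6790 and 7314 units in R-07, and 5986 to 8836 units in FL-06, and 7 of 7 such genes rose, among them the elastase gene Elane (3.98), the lysozyme gene Lyz2 (3.90) and Fcnb (3.45 on the log2 scale). Ms4a3 (4.69) entered only through R-09. The 11 monocyte and macrophage markers summed to 2888 to 6412 units in R-09, against 287 and 579 in R-07 and 252 to 523 in FL-06, and 1 of 2 such markers rose. The 8 granule genes were above 0 in every library. Of the other marker lists, 4 of 4 such erythroid markers, 1 of 1 B and plasma cell marker and 1 of 1 T and NK cell marker rose in R-09. All 3 tested mast cell and basophil markers entered only through R-09 and are not counted. The T cell gene Cd3e and the NK cell gene Ncr1 were at 0 in all 12 libraries.

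The sort gate and the stem cell genes also differed by series. Cd34, which the sort selected against, had 3098 to 3629 units in R-09, against 462 to 821 units in the other 8. Cd48, also selected against, had 368 to 582 units in R-09 and 1.08 to 268 units in the other 8. Cd48 met the minimum only through R-09, so its difference is a description. Hlf, a factor of stem cells, had 844 to 995 units in R-09 and 2230 to 3398 units in the other 8, and Mecom, another, had 504 to 779 units in R-09 and 1278 to 2262 units in the other 8. Procr and Ly6a, also on the stem cell list, went the other way. Procr had 876.5 to 1248 units in R-09 and 67.06 to 399.8 units in the other 8. Ly6a had 1619 to 2303 units in R-09 and 0 to 434.1 units in the other 8. The 10 stem cell markers summed to 12805 to 16006 units in R-09, 18904 and 21364 units in R-07, and 17283 to 20957 units in FL-06. Kit held the largest part of that sum, with 5902 to 8360 units in R-09 and 8462 to 11369 units in the other 8. Of 9 stem cell markers tested, 2 rose and 5 fell, where 35.6% of all genes tested rose and 32.3% fell. Over all genes tested, the 4 R-09 libraries lay wholly above the other 8 for 29.3% and wholly below for 26.0%. Hlf and Mecom were thus detected in all libraries. The part of these marker differences in the R-09 values of the members was not tested.

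**Figure D4:**
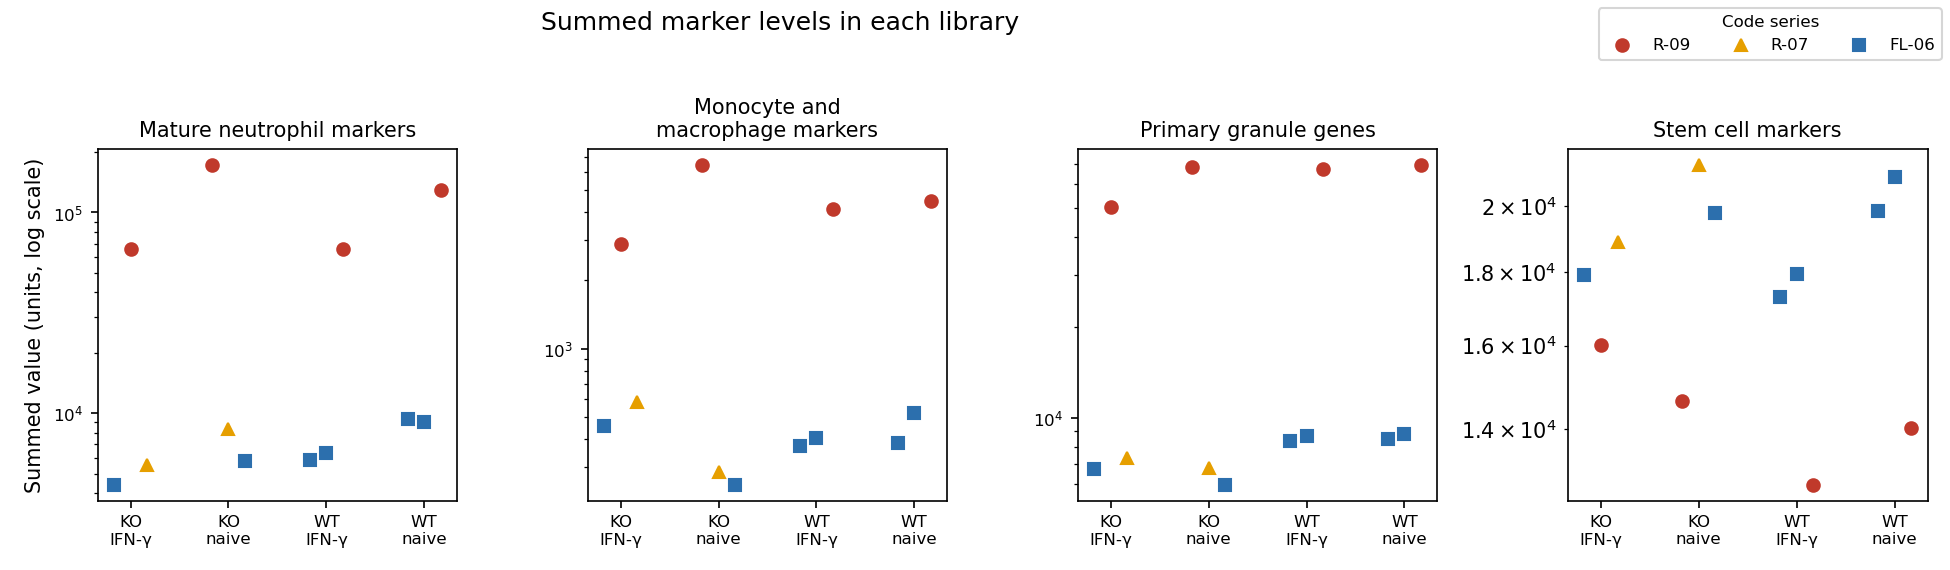
Summed deposited values (units, log scale that differs between panels) of mature neutrophil markers, monocyte and macrophage markers, primary granule genes and stem cell markers in each library, by group and coloured by code series. R-09 libraries lay at 65551 to 171830 units for neutrophil markers, against 4412 to 9406 units in the other 8. They had the lowest stem cell sums, of which Kit was the largest part, while 2 of 9 tested stem cell markers rose.

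Further genes of the myeloid network went both ways in R-09. Of 26 other myeloid transcription factors, 21 were tested, 9 rose and 8 fell, where 35.6% of all genes tested rose and 32.3% fell. Zeb2 (−2.96), a zinc finger repressor, and Myb (−2.86), which maintains progenitors, fell. Fos (3.19) and Batf (2.81), leucine zipper factors, rose. Myb had 3435 to 4313 units in R-09, against 18776 to 32324 units in the other 8. Of 9 antagonists and E proteins, 5 met the minimum without R-09, of which 1 rose and 3 fell, among them the E proteins Tcf12 (−1.62) and Tcf3 (−0.91). Id3 (6.2) and Id1 (5.66), which like Id2 inhibit E proteins, entered only through R-09, so their differences are a description.

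Of 13 other cytokine receptors, 12 were tested, 3 rose and 2 fell in R-09, against 35.6% and 32.3% of all genes tested. Epor (1.51), the erythropoietin receptor, and Csf2ra (1.47), the GM-CSF receptor's α chain, were among those that rose. Il6st (−0.87), the shared IL-6 receptor chain, was among those that fell. Csf2ra had 467 to 582 units in R-09 and 115 to 335 units in the other 8. Of the 8 myeloid cytokines, 2 were tested and 0 were called, while Csf3, Il3 and Il34 were at 0 in all libraries, and these are ligands of Csf3r, of Csf2rb's complex and of Csf1r. The tested pair, Flt3l (−0.03) and Csf1 (−0.39), did not pass.

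For IFN-γ or genotype, 0 genes on these lists were called by limma, so the pathway around the members gave no call either. Highly expressed genes of each list are given as log2 estimates for IFN-γ with the SE. Jun, an AP-1 factor, had 0.01 in KO and −0.36 in WT (SE 0.20 each), and Myb had −0.02 in KO and −0.16 in WT (SE 0.10 each). Among antagonists and E proteins, Gata2 had −0.03 in KO and 0.07 in WT (SE 0.17 each), and Tcf3 had 0.04 in KO and −0.20 in WT (SE 0.12 each). All of these estimates lay within 2 SE of 0. Kit, the stem cell factor receptor, had −0.12 in KO and −0.25 in WT (SE 0.12 each). Of the granule genes, myeloperoxidase (Mpo) had 0.08 in KO and 0.18 in WT (SE 0.10 each), and Lyz2 had −0.19 in KO and −0.42 in WT (SE 0.25 each). The cytokine genes Flt3l (0.10 in KO, 0.28 in WT, SE 0.66) and Csf1 (0.19 in KO, 0.25 in WT, SE 0.60) had wider errors. Adjusted p-values of these genes were 0.63 or above.

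Over the 12 libraries, the genes most like each member were found by Pearson correlation of log2(value + 1), as a description only. The libraries share code series, and they differ in depth. Spi1 was most like Tubg1 (r = 0.989), Arl2 and Snu13, and Cebpb most like Sqstm1 (0.981), Oser1 and Ier3. Csf1r was most like Sdhaf2 (0.981), Id2 like Gng12 (0.974), Cebpd like Dnajc12 (0.977), Batf2 like Nubpl (0.952) and Cebpa like B4galnt4 (0.962). Csf2rb was most like Aldh4a1 at 0.99, and at 0.861 without WT naive 2. Gfi1 was most like Carhsp1 (0.925) and Csf3r like Smim1 (0.856), the lowest top value of the 10 members.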

How the data were processed

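For the 12 libraries the deposited values are gene-level signal values, normalized by the authors and never below 0; a second deposited table held the same values in another order. Per the submitters' processing notes, STAR and DESeq were used. Versions, genome build, annotation and strand settings were not given in the sources used here. Only 2.02 to 3.67% of values were whole multiples of a read step (tolerance 0.01), so reads could not be recovered, depths are rough, and no count test was run. Of 24972 rows, 26 with names turned into dates were left out. Values were analysed as log2(value + 1), which understates the ratio between low values above 0. Where a library was at 0, the size of the difference depends on the 1 unit added and can be large.

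All 12 libraries entered 1 limma model (limma 3.58.1, R 4.3.3, empirical Bayes with trend; residual df 6, prior df 5.02) with 4 group means and the code series, and p-values were Benjamini-Hochberg adjusted over 10816 genes. The comparisons share libraries: both genotype differences and both IFN-γ effects use the same groups. The script was tested on simulated data. Same-numbered treated and naive WT libraries share a code series and deviated together (correlations 0.459 to 0.825), while in the other pairs of groups correlations ran from −0.88 to 0.727. Members and gene lists were chosen with earlier results of these data known. Named were all members; of the other lists, up to 4 called genes per list and comparison or, with 0 called, the 2 of highest mean (given for IFN-γ and the code series), except 1 gene that is not reported here; and 3 most correlated genes per member. Marker genes, Csf2rb2 and the sequences shown were picked after values were seen. Alternatives were other pseudocounts, filters, quantile normalization, no code series, a replicate block, robust fitting, no R-09 libraries, and each library left out. Tables and figures were made with Python 3.11.15, pandas 2.3.3 and matplotlib 3.10.9.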

Additional observations from a re-analysis of the deposited data

Results flagged for a closer look

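Csf3r was singled out because its IFN-γ difference had one direction in every KO code series and the opposite direction in both WT code series. The fitted difference between the effects, KO minus WT, was 0.87 on the log2 scale (SE 0.37, limma adjusted p = 0.9331), which did not pass the threshold. Over 21 alternative settings it lay between 0.64 and 1.04, with adjusted p-values from 0.57 to 1. The summed neutrophil markers were lower in treated than in naive libraries within every code series of both genotypes. Single markers had positive estimates for 3 of 9 tested in KO and 2 of 9 in WT. The part of these markers in the Csf3r difference was not tested.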

How the results depend on the processing

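No member was called for IFN-γ, genotype or their interaction under any of the 21 alternatives. The number of genes called over the whole table was less steady, and the cause was not tested. For IFN-γ averaged over genotypes it was 13 with a pseudocount of 10, 29 with quantile normalization, 0 without the code series, and 3 to 22 when 1 library was left out, against 7. For IFN-γ in KO it was 7 with quantile normalization and 0 to 7 with 1 library left out (7 without WT naive 2), against 0. For IFN-γ in WT it was 5 with a pseudocount of 10, 2 without a filter, 4 with quantile normalization, 0 without the code series, 2 with robust fitting, 2 without the R-09 libraries, and 0 to 15 with 1 library left out, against 1. KO minus WT called 0 to 3 genes in naive and 0 to 1 in treated HSCs with 1 library left out, and 2 in treated HSCs without R-09. The interaction called 0 to 2 genes with 1 library left out and 1 without R-09. With the replicate number as a block, the count for IFN-γ in WT was 0; the block changed no call of a member in these comparisons. The 7352 genes called between R-09 and FL-06 stayed within 1.5 times that number. The depth of WT naive 2 limits what can be said of Batf2, Cebpd, Csf1r, Csf2rb and Id2 in naive WT HSCs, all at 0 there.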
